A study of Mus musculus with 4 samples.

Results

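Retnla, Ccl24, Fcrls, Mrc1, Igf1, Pf4 and Cbr2 mark macrophages that are resident in a tissue or alternatively activated, states linked to housekeeping and repair. They are described here in the immune cells of mouse hearts after an agonist antibody against CD40, set against a rat IgG isotype antibody. The 7 genes were taken by symbol from the 32285 genes of the feature lists, and each symbol occurred once in both libraries. They were chosen because they were lower in macrophages of the anti-CD40 library, so that contrast is a description and carries no test.

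The data are CITE-seq, which reads transcripts and antibody tags from the same droplet-captured cells. The anti-CD40 library held hearts of 4 C57BL6J mice given the agonist antibody, and the isotype library hearts of 4 C57BL6J mice given rat IgG. Each library pooled its 4 mice, the atria had been removed, the tissue had been digested for 20 min, and capture used 10x 5′ chemistry. Mouse age and the dose and timing of the antibodies are not given in the labels, and the sort gate is named as CD45 without DAPI in the titles and as DRAQ5 without DAPI in the series text. With 1 library per group there is no replicate check, so no p-value is given, and every interval below is a 95% interval of counting error only. Mice within a pool could not be separated.

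The anti-CD40 matrix held 7087 barcodes and the isotype matrix 4908, of which 4278 (60.4%) and 2558 (52.1%) had at least 200 genes and under 10% mitochondrial counts and were kept. Kept cells had a median of 8284.5 unique transcript counts (UMIs) in the anti-CD40 library and 5446 in the isotype library. Only 6 kept barcodes occurred in both. Macrophages were gated as cells with at least 20 UMIs of C1qa, C1qb and C1qc together, which are complement genes and defining markers of macrophages. The gate took 2545 anti-CD40 cells and 1008 isotype cells, with median depths of 12730 and 10788.5 UMIs. Of the other macrophage markers, Lyz2, Cd68, Adgre1, Mertk and Csf1r were at 0.97, 1.05, 0.80, 0.65 and 0.50 times the isotype level in the anti-CD40 macrophages and Fcgr1, an Fc receptor, at 2.85 times. C1qa, C1qb and C1qc themselves were at 1.27, 1.47 and 1.14 times. Barcodes that also carried at least 3 UMIs of a B cell, T cell, NK cell, neutrophil, endothelial or fibroblast marker list made up 25.5% of the anti-CD40 macrophages (649 cells) and 48.1% of the isotype macrophages (485 cells). No doublet caller was run. Levels are summed UMIs of a group scaled to 1000000 UMIs of that group (CPM).

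Macrophages of the heart that carry Timd4 (the phosphatidylserine receptor Tim-4) and lack Ccr2 (the chemokine receptor that draws monocytes into tissue) are known as a long-lived resident population, while Ccr2-bearing macrophages are replenished from blood monocytes. Alternative activation is the programme that IL-4 and IL-13 induce through STAT6, with Retnla, Mrc1 and Ccl24 among its classic mouse target genes. Interferon-gamma and CD40-driven inflammation are known to push macrophages toward the opposite, classical programme. The gated macrophages were split by whether a cell had any UMI of Ccr2 and of Timd4, which gave 509 Ccr2- Timd4+, 636 Ccr2- Timd4-, 342 Ccr2+ Timd4+ and 1058 Ccr2+ Timd4- cells in the anti-CD40 library. The isotype library had 305, 454, 95 and 154 cells in these groups. Median depth was highest in the Ccr2+ Timd4+ cells, at 23886 UMIs in the anti-CD40 library and 28374 in the isotype library, and 48.2% of these anti-CD40 cells and 76.8% of these isotype cells carried another class's markers. A cell with more UMIs is more likely to show a UMI of both genes, so the depth and the mixed barcodes of that group move with its definition.

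The promoters of 4 of the genes are shown so that searched recognition letters can be read in them directly. Letters of the macrophage factor PU.1 lie in all 4 printed stretches, and STAT6 letters in that of Retnla alone. RefSeq windows of 300 bases, from 250 before to 50 after a start site, were given for 6 of the 7 genes on the build GRCm38.p6; the bases just before the start site are printed 5′ to 3′ on the strand of the gene, with matches to any searched motif in capitals. The windows are Retnla at chr16:48842409-48842608 on the plus strand, Mrc1 at chr2:14229214-14229413 on the plus strand, Pf4 at chr5:90772375-90772434 on the plus strand and Cbr2 at chr11:120732022-120732121 on the minus strand.
Retnla: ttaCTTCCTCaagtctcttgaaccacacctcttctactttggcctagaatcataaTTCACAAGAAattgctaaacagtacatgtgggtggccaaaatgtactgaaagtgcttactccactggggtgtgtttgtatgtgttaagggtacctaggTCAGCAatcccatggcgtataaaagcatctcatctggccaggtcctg
Mrc1: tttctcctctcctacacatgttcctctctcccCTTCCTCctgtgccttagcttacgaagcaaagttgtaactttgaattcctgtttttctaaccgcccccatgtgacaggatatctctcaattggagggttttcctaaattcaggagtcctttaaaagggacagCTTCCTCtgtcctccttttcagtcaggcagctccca
Pf4: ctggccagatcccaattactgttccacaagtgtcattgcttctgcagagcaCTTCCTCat
Cbr2: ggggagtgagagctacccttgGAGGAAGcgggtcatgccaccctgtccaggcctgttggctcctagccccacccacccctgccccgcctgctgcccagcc

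GAGGAAG, letters found in many sites of the macrophage factor PU.1, occurred on one strand or the other (as GAGGAAG or CTTCCTC) in all 6 windows, against 13.6% of 32851 mouse windows and 14.0% of 12304 windows of genes with at least 30 UMIs in the macrophages of either library. TTC followed by GAA with 4 bases between them, the letters STAT6 binds, occurred in the windows of Retnla and Cbr2, against 6.95% of all windows. In Retnla it lay at -145 to -136 from the start site and is the longest run of capitals above, while in Cbr2 it lay after the start site. TGCTGA, letters of the MAF family's site, occurred in Retnla, Cbr2 and Fcrls, against 19.5% of windows. GAAA and GAAA with 2 bases between them (interferon-type, in 3.44% of windows) and GGGA and TTTCC with 1 between (NF-kappaB-type, in 0.411%) occurred in none of the 6. Both strands were searched for all 5 motifs and no matches overlapped within these windows. A match gives letters, not binding, and the windows of Fcrls and Igf1 start inside the annotated gene (241 and 2846 bases from its 5′ end), so they are not printed.

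All 7 genes were lower in the anti-CD40 macrophages than in the isotype macrophages by at least 2-fold. Of the 10653 genes with enough counts in these cells, 11% were that much lower (1170 genes), and 5.43% at least 2-fold higher, but the 7 were chosen on this contrast and nothing is read from their count. Their median log2 ratio, with 10 CPM added to each level, was -2.21, beside -0.13 over all genes measured. From the lowest log2 ratio upward, Ccl24 ranked 8, Fcrls 12, Igf1 35, Pf4 41, Cbr2 68, Retnla 75 and Mrc1 161. When the barcodes with another class's markers were left out, 7 of 7 were again at least 2-fold lower (background 9.38%), by 9.08-fold for Retnla, 64.4-fold for Ccl24, 20.2-fold for Fcrls, 3.11-fold for Mrc1, 8.42-fold for Igf1, 5.71-fold for Pf4 and 4.93-fold for Cbr2. When barcodes passing any of all 9 other lists were left out, which leaves 1239 anti-CD40 and 198 isotype cells and also removes macrophages with F13a1, all 7 stayed at least 2-fold lower. Ccl24 then stood at 0.871 CPM in anti-CD40 cells and 19.1 CPM in isotype cells, 21.9-fold lower. The genes are taken below by what their products do.

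**Figure D1:**
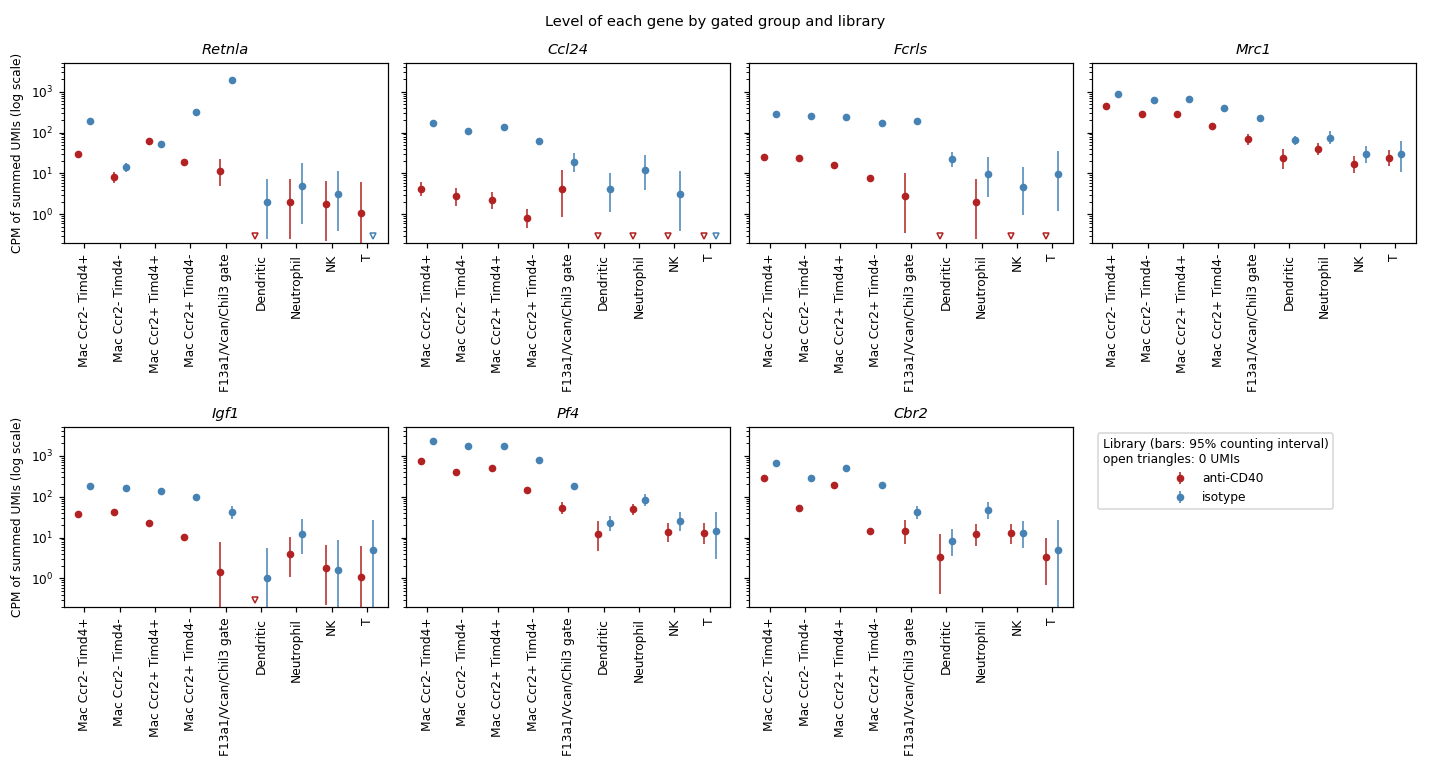
Level of each gene in CPM (log axis) in the 4 macrophage groups (Mac) and 5 other gated groups, with the anti-CD40 library in red to the left of the isotype library in blue; bars are 95% counting intervals and open triangles are groups with 0 UMIs. Red points lie below blue points in all 4 macrophage groups for every gene except Retnla, which is at 63.5 CPM against 52.1 CPM in Ccr2+ Timd4+ macrophages.

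Pf4 (ENSMUSG00000029373) encodes platelet factor 4, a chemokine that platelets store and resident macrophages also transcribe. It was at 375 CPM in anti-CD40 macrophages and at 1768 CPM in isotype macrophages, 4.72-fold lower (95% counting interval 4.62 to 4.82). In Ccr2- Timd4+ macrophages it was at 756 CPM in the anti-CD40 library and 2303 CPM in the isotype library, and in Ccr2- Timd4- macrophages at 407 and 1737 CPM. Both libraries therefore had their highest Pf4 level in Ccr2- Timd4+ cells. In Ccr2+ Timd4+ macrophages it was at 489 CPM in the anti-CD40 library and 1779 CPM in the isotype library, and in Ccr2+ Timd4- macrophages at 146 and 782 CPM. The isotype levels of the 2 middle groups had overlapping intervals (1734 to 1826 CPM and 1698 to 1777 CPM), and every other neighbouring pair in either library was separated. Since Pf4 is a platelet gene, platelet transcripts in the same macrophages were read beside it: Ppbp, another platelet chemokine, was at 0.952 CPM in the anti-CD40 library and 7.40 CPM in the isotype library. The platelet genes Itga2b, Gp9, Gp1ba, Gp1bb and Tubb1 had between 0 and 10 UMIs each in either library, against 14556 anti-CD40 and 26740 isotype UMIs of Pf4.

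Ccl24 (ENSMUSG00000004814) encodes eotaxin-2, a chemokine that attracts eosinophils. It had 80 UMIs in all anti-CD40 macrophages (2.06 CPM) and 1955 UMIs in the isotype macrophages (129 CPM), 62.8-fold lower (interval 50.2 to 79.5). By group the anti-CD40 level was 4.21 CPM in Ccr2- Timd4+ cells, 2.75 CPM in Ccr2- Timd4- cells, 2.24 CPM in Ccr2+ Timd4+ cells and 0.831 CPM in Ccr2+ Timd4- cells, while the isotype level was 176, 110, 136 and 63.3 CPM in the same groups. Ccl24 was lower in all 4 anti-CD40 groups, by 40.0-fold in Ccr2- Timd4- cells (24.7 to 69.2) and by up to 76.2-fold in Ccr2+ Timd4- cells (44.2 to 142). These intervals overlapped, and the larger fold rested on 14 anti-CD40 UMIs. Without barcodes passing any of the 9 other lists its log2 ratio was -1.21 in Ccr2- Timd4- cells, in place of -3.23. In Ccr2+ Timd4- cells it was -0.58, in place of -2.76. After every cell was thinned to 2000 UMIs, so that depth is equal, Ccl24 was detected in 0.555% of anti-CD40 macrophages and 17.9% of isotype macrophages; without thinning it was detected in 1.89% and 47.0%. Among thinned neutrophils, cells not known to make Ccl24, it was found in 0 of 224 anti-CD40 cells, which allows a share of up to 1.34%, and in 2.94% of isotype cells. The anti-CD40 macrophage share lies below what that 0 allows, so the comparison with thinned neutrophils cannot tell it from background. At full depth the anti-CD40 UMIs were uneven, with 10 macrophages holding 50% of them. Ranked by the folate receptor beta tag described below, the top tercile of macrophages had 52 of these UMIs and the bottom tercile 1. Whether they are background was not tested. Ccr3, the eosinophil receptor of Ccl24, had 6 UMIs in anti-CD40 macrophages and 4 in isotype macrophages. Ccl8, a related chemokine on the list of partners, was at 392 CPM in the anti-CD40 library and 8.26 CPM in the isotype library, the opposite direction.

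Igf1 (ENSMUSG00000020053) encodes insulin-like growth factor 1, a growth factor made by resident macrophages and by fibroblasts. It was at 23.2 CPM in anti-CD40 macrophages and 155 CPM in isotype macrophages, 6.68-fold lower (interval 6.18 to 7.22). In Ccr2- Timd4+ and Ccr2- Timd4- cells of the anti-CD40 library it was at 37.9 and 43.0 CPM, with overlapping intervals, and in those groups of the isotype library at 184 and 167 CPM, also overlapping. It was lower in Ccr2+ Timd4+ cells (22.3 CPM in the anti-CD40 library, 139 CPM in the isotype library) and lowest in Ccr2+ Timd4- cells (10.3 and 96.9 CPM). Fibroblasts, which make Igf1, were too few to compare, at 27 anti-CD40 cells and 18 isotype cells. They had 8 UMIs of Igf1 in the anti-CD40 library and 14 in the isotype library. Its receptor Igf1r and the insulin receptor Insr were 2.58-fold and 2.63-fold lower in anti-CD40 macrophages, and the binding protein Igfbp4 5.46-fold lower, while Igf2r, which clears the related factor IGF2, was 2.77 times the isotype level.

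Retnla (ENSMUSG00000061100) encodes RELM-alpha, a secreted protein that IL-4 and IL-13 induce strongly in mouse macrophages. It was at 29.4 CPM in anti-CD40 macrophages and 132 CPM in isotype macrophages, 4.48-fold lower (interval 4.17 to 4.83). Unlike the other 6 genes it was not lower in every group. It was at 30.3 and 190 CPM in Ccr2- Timd4+ cells of the anti-CD40 and isotype libraries, at 8.08 and 14.3 CPM in Ccr2- Timd4- cells, at 63.5 and 52.1 CPM in Ccr2+ Timd4+ cells and at 18.7 and 310 CPM in Ccr2+ Timd4- cells. In the Ccr2+ Timd4+ group the anti-CD40 level was 1.22 times the isotype level (interval 1.02 to 1.46), and in the Ccr2+ Timd4- group it was 16.6-fold lower (14.5 to 18.9). Retnla did not have enough cells with a UMI to be counted among the measured genes in Ccr2- Timd4- macrophages (50 anti-CD40 and 61 isotype UMIs). Its log2 ratio there was -0.43, but 0.11 with at least 500 genes and under 5% mitochondrial counts and 0.76 without the 9 lists, so its direction in that group is not settled. In Ccr2- Timd4+ cells the Retnla log2 ratio was -2.31, but only -0.25 without the 9 lists.

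Retnla levels rested on few cells. In anti-CD40 macrophages 4 cells held 50% of all its UMIs and in isotype macrophages 8 cells did, while the same share of Mrc1 took 355 anti-CD40 cells and 162 isotype cells. Among all kept cells, the richest had 312 UMIs in the anti-CD40 library and 790 in the isotype library. Cells with at least 20 Retnla UMIs numbered 13 among the kept anti-CD40 cells and 26 among the kept isotype cells. Of the isotype cells, 12 were Ccr2- Timd4+ macrophages, all with Lyve1 (a hyaluronan receptor of resident macrophages) and 10 with Ccl24, and 7 were Ccr2+ Timd4- macrophages, none of which had Lyve1 or Ccl24 and 6 of which had Fn1 (fibronectin). Of the anti-CD40 cells, 5 were Ccr2+ Timd4+, 4 were Ccr2+ Timd4-, 3 were Ccr2- Timd4+ and 1 was Ccr2- Timd4-. A single cell could set a group's level: the richest cell held 55.0% of the anti-CD40 Retnla UMIs in Ccr2+ Timd4+ cells, and when cells with at least 20 Retnla UMIs were left out there, the levels were 11.8 CPM in the anti-CD40 library and 19.7 CPM in the isotype library. It left 1.43 CPM in anti-CD40 and 14.1 CPM in isotype Ccr2+ Timd4- cells, 2.27 CPM in anti-CD40 and 14.3 CPM in isotype Ccr2- Timd4- cells, and 12.03 CPM in anti-CD40 and 43.5 CPM in isotype Ccr2- Timd4+ cells. The same step left 5.81 CPM in all anti-CD40 macrophages and 25.0 CPM in all isotype macrophages.

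**Figure D2:**
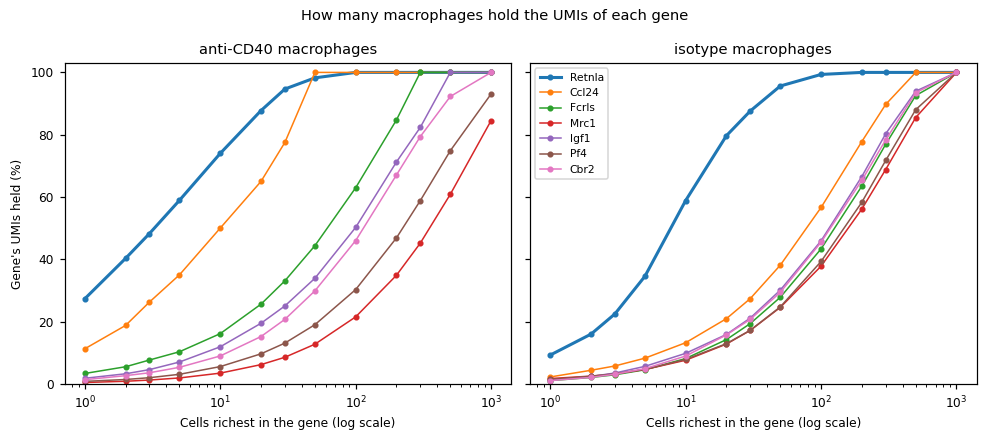
Percent of each gene's UMIs held by the richest cells of the macrophage gate, against the number of cells (log axis), for the anti-CD40 library (left) and the isotype library (right). Retnla climbs far faster than the other genes, with the 10 richest cells holding 74.0% of its UMIs in the anti-CD40 library and 58.9% in the isotype library.

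Outside the macrophage gate the isotype library had a further Retnla-rich set. Cells gated on Vcan, F13a1 and Chil3, with under 20 C1q UMIs, held 40.2% of the isotype Retnla UMIs, at 1946 CPM, against 11.4 CPM in the 73 anti-CD40 cells of that gate. Of the 1407 isotype UMIs, 1398 came from 3 of 99 cells, which had 790, 446 and 162 UMIs. Those cells had no UMI of Vcan, Chil3 or Ly6c2, classical monocyte genes, and had Ccr2 at 42, 29 and 36 UMIs and Fcrls at 68, 23 and 20 UMIs. Without them the isotype level was 14.3 CPM. Because 57 of the 99 isotype cells and 20 of the 73 anti-CD40 cells passed by F13a1 alone, the gate is named by its genes and not as a cell type.

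Mrc1 (ENSMUSG00000026712) encodes the mannose receptor CD206, the usual surface mark of alternatively activated macrophages. It was at 255 CPM in anti-CD40 macrophages and 673 CPM in isotype macrophages, 2.64-fold lower (interval 2.56 to 2.71), the smallest difference of the 7. By group it was at 455 and 864 CPM in Ccr2- Timd4+ cells of the anti-CD40 and isotype libraries, at 293 and 636 CPM in Ccr2- Timd4- cells, at 288 and 654 CPM in Ccr2+ Timd4+ cells and at 142 and 391 CPM in Ccr2+ Timd4- cells. The 2 middle groups had overlapping intervals in both libraries. In the Ccr2- Timd4+ cells the difference was 1.90-fold (1.81 to 1.99), the only Mrc1 difference below 2-fold. Mrc1 was detected in 74.3% of anti-CD40 macrophages and 92.9% of isotype macrophages, and after thinning in 35.5% of anti-CD40 and 64.0% of isotype macrophages.

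Fcrls (ENSMUSG00000015852) encodes Fc receptor-like S, a scavenger receptor best known as a microglia and resident macrophage gene of mice. It was at 15.5 CPM in anti-CD40 macrophages and 244 CPM in isotype macrophages, 15.7-fold lower (interval 14.4 to 17.2). In the isotype library it was fairly even across groups, at 279, 249, 240 and 171 CPM in Ccr2- Timd4+, Ccr2- Timd4-, Ccr2+ Timd4+ and Ccr2+ Timd4- cells, while in the anti-CD40 library the levels in that order were 25.0, 24.6, 16.1 and 7.95 CPM. Intervals overlapped between both Ccr2- groups in the anti-CD40 library, and between the Ccr2- Timd4- and Ccr2+ Timd4+ groups in the isotype library. The Ccr2- Timd4+ and Ccr2- Timd4- isotype groups also touched, at 265 CPM.

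Cbr2 (ENSMUSG00000025150) encodes carbonyl reductase 2, an enzyme that reduces carbonyl compounds and marks resident macrophages in several mouse tissues. It was at 110 CPM in anti-CD40 macrophages and 439 CPM in isotype macrophages, 3.98-fold lower (interval 3.83 to 4.14). It followed Timd4 more closely than any of the other genes with enough counts in both comparisons. In Ccr2- cells it was at 292 CPM with Timd4 and 53.7 CPM without in the anti-CD40 library, a ratio of 5.44 (4.84 to 6.13), and at 651 CPM with Timd4 and 280 CPM without in the isotype library, a ratio of 2.32 (2.17 to 2.48). Retnla had a ratio of 3.75 in the anti-CD40 library, where it was too sparse to be counted as measured, and 13.3 in the isotype library. Genes at least 2-fold higher with Timd4 were 1.1% of those measured in the anti-CD40 library and 0.999% in the isotype library. The difference between the libraries in Cbr2 was accordingly 2.23-fold in Ccr2- Timd4+ cells and 5.22-fold in Ccr2- Timd4- cells, and in Ccr2+ Timd4- cells 13.5-fold, the largest of its groups. This order did not hold without barcodes passing any of the 9 other lists. The Cbr2 log2 ratio was then -1.86 in Ccr2- Timd4+ cells, in place of -1.13. It was -1.84 in place of -2.19 in Ccr2- Timd4- cells, and -1.38 in place of -3.07 in Ccr2+ Timd4- cells.

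**Figure D3:**
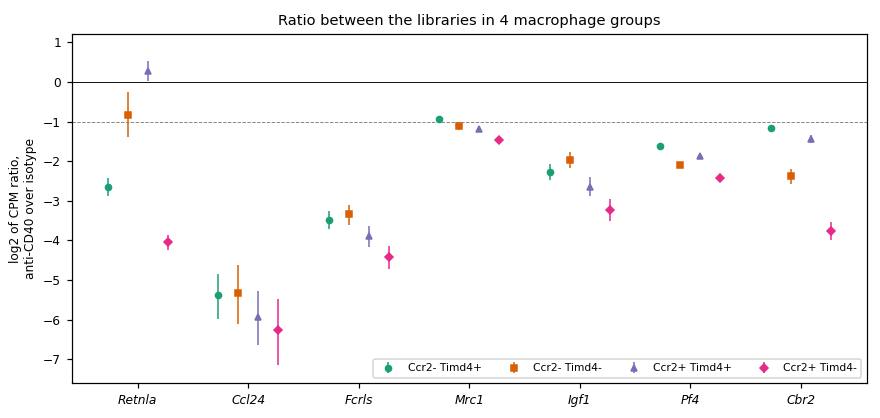
Log2 of the anti-CD40 over isotype CPM ratio (no prior added) for each gene in the 4 macrophage groups, with 95% counting intervals; the dashed line marks 2-fold lower. Mrc1 lies near the dashed line in every group, and Retnla spans both sides of the solid line at 0.

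Within the macrophage groups, counts of genes at least 2-fold lower in the anti-CD40 library were 6 of 7 in Ccr2- Timd4+ cells (background 9.85% of measured genes), 6 of 7 in Ccr2- Timd4- cells (9.09%), 6 of 7 in Ccr2+ Timd4+ cells (8.41%) and 7 of 7 in Ccr2+ Timd4- cells (9.82%). The median log2 ratios were -2.02, -2.07, -1.84 and -2.76 in these groups, beside -0.11, -0.11, -0.08 and -0.10 over all measured genes. These groups share cells with the contrast that chose the genes, and the counts are a description. Ccr2+ cells were compared with Ccr2- cells among the Timd4- macrophages of each library. The choice did not use this split, but it used the same cells. Ccr2+ Timd4- cells made up 1058 of 2545 anti-CD40 and 154 of 1008 isotype macrophages. The choice can therefore favour genes that are low in them, and these counts too are a description. In the anti-CD40 library 6 of 7 genes were at least 2-fold lower in Ccr2+ cells, against a background of 2.72% of measured genes. Among the 6, Ccl24 was too sparse to be counted as measured (14 and 17 UMIs). Retnla, also too sparse, was 2.32 times higher (1.27% of measured genes were 2-fold higher). In the isotype library only Pf4 was 2-fold lower (2.22-fold, background 1.59%), and Retnla was 21.7 times higher (background 1.49%). The other 5 genes were 1.43- to 1.73-fold lower there. The Retnla difference rested on its rich cells: without cells of at least 20 Retnla UMIs it was at 14.1 CPM in Ccr2+ cells and 14.3 CPM in Ccr2- cells of the isotype library, and at 1.43 and 2.27 CPM in those of the anti-CD40 library. The difference between the libraries in this comparison was not tested, since each has 1 library.

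A further view counted how many of the 7 genes a macrophage showed after thinning to 2000 UMIs. Anti-CD40 macrophages showed a median of 1 and a mean of 0.929, and isotype macrophages a median of 3 and a mean of 2.72. None of the 7 was detected in 43.5% of anti-CD40 cells (1097 of 2524) and 6.05% of isotype cells (60 of 992). At least 3 were detected in 8.28% of anti-CD40 cells and 56.2% of isotype cells, and no cell of either library showed all 7.

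**Figure D4:**
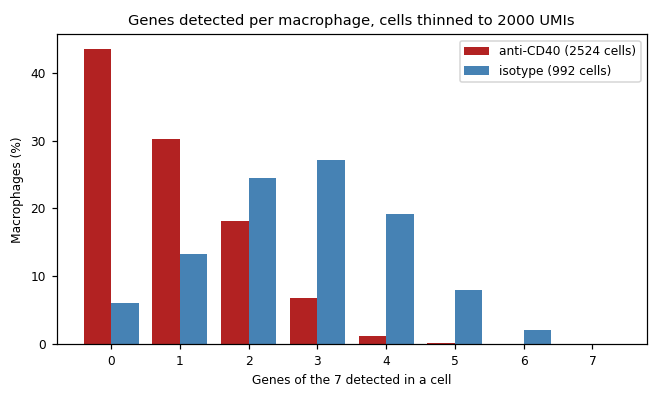
Percent of macrophages by the number of the 7 genes detected after thinning to 2000 UMIs, with anti-CD40 bars left of isotype bars. The anti-CD40 distribution falls away from 0 genes, whereas the isotype distribution peaks at 3.

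Pairs of genes were detected in the same cell at about the rate their separate shares give in the isotype macrophages. Over the 21 pairs the observed count was 0.661 to 1.45 times the expected, lowest for Retnla with Igf1 (9 cells, 13.6 expected) and highest for Ccl24 with Cbr2 (110 cells, 76.1 expected). In the anti-CD40 macrophages, where each gene is sparser, it was 0.830 to 9.01 times, and the highest ratio rests on 2 cells with both Retnla and Ccl24. Mrc1 with Pf4 (465 cells, 318 expected) and Pf4 with Cbr2 (210 cells, 112 expected) were common enough to read. All cells had been thinned to equal depth for these counts.

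Apart from isotype Retnla at 57.0%, 89.6% to 98.1% of each gene's UMIs lay in gated macrophages. The gate on Vcan, F13a1 and Chil3 came nearest to the macrophages: in its anti-CD40 cells Fcrls, Mrc1 and Pf4 were at 2.85, 68.3 and 54.1 CPM, and in its isotype cells at 187, 232 and 178 CPM. Endothelial cells had Pf4 at 155 CPM in the anti-CD40 library (56 UMIs in 67 cells) and 59.5 CPM in the isotype library. Mrc1 was at 24.2 and 29.3 CPM in T cells of the anti-CD40 and isotype libraries, at 17.2 and 30.4 CPM in NK cells and at 40.5 and 75.4 CPM in neutrophils. Those cells are not known to make Mrc1, so their levels are given as a background. The source of these counts, such as free RNA in the droplets or mixed barcodes, was not tested. Pf4 in anti-CD40 T cells, NK cells and neutrophils was at 13.2, 13.6 and 48.6 CPM, and in those of the isotype library at 14.7, 25.6 and 85.1 CPM. Fcrls was not detected in the 41 anti-CD40 dendritic cells and was at 22.5 CPM in the 60 isotype dendritic cells. After thinning, Pf4 was detected in 35.5% of anti-CD40 and 83.2% of isotype macrophages, against 8.93% and 12.7% of neutrophils. Igf1 was detected in 4.32% of anti-CD40 and 23.9% of isotype macrophages, and in 0.446% of anti-CD40 and 0.980% of isotype neutrophils. Cbr2 was detected in 12.4% of anti-CD40 and 42.7% of isotype macrophages, and in 2.68% of anti-CD40 and 5.88% of isotype neutrophils. For Fcrls the macrophage shares were 3.01% in the anti-CD40 library and 34.6% in the isotype library, and for Retnla 1.58% and 5.75%. Neutrophils were shallower, with median depths of 2860 UMIs in the anti-CD40 library and 3012 in the isotype library. Only Mrc1 (1.86-fold lower in the anti-CD40 library) and Pf4 (1.75-fold lower) had enough counts in neutrophils, and none of the 7 did in NK cells. Compared within a library, macrophages had 6 of 7 genes at least 2-fold higher than the gate on Vcan, F13a1 and Chil3 in the anti-CD40 library, Retnla among them on 8 UMIs in the gate (background 20.4%), and 5 of 7 in the isotype library (20.8%). In that gate 7 of 7 were at least 2-fold lower in the anti-CD40 library (10.5%), some on very few counts. Retnla was lower there through the 3 rich isotype cells, with a ratio of 0.80 without them, and the same cells held most of the 135 isotype UMIs of Fcrls. Ccl24 had 3 anti-CD40 and 14 isotype UMIs, too few to be counted as measured, and Igf1 had 1 anti-CD40 and 31 isotype UMIs.

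The cells just inside and just outside the C1q threshold bracket the gate. Pf4 was at 118 CPM in anti-CD40 cells with 20 to 39 C1q UMIs and at 92.0 CPM in those with 10 to 19, and at 833 and 490 CPM in isotype cells of the same ranges. Mrc1 was at 207 and 137 CPM in these anti-CD40 cells and 614 and 430 CPM in these isotype cells. Both genes were lower just outside the gate than just inside it, and lower in the anti-CD40 cells on both sides.

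Antibody tags on the same macrophages gave surface protein beside these transcripts; none of the tags used here reads a protein of the 7 genes. Per 10000 tag UMIs of all macrophages, Tim-4 was at 85.2 in the anti-CD40 library and 73.1 in the isotype library, folate receptor beta (a resident macrophage folate receptor) at 513 and 969, and CD163 (a haemoglobin scavenger receptor) at 152 and 590. In neutrophils of the anti-CD40 and isotype libraries Tim-4 was at 25.5 and 14.9 and folate receptor beta at 145 and 178. CD163 was at 32.7 and 171 there, also lower in the anti-CD40 library. The source of these neutrophil tags was not tested. Control antibodies averaged 1.43 per 10000 in the anti-CD40 library and 0.74 in the isotype library. The anti-CD40 mean was 3.30 in Ccr2+ Timd4+ cells and 0.67 to 0.77 in the other 3 groups. Macrophages were then ranked by each tag within a library and their top and bottom terciles compared. Cbr2 was at 263 CPM in the top folate receptor beta tercile and 5.44 CPM in the bottom one in the anti-CD40 library, and at 671 and 122 CPM in the isotype library. Pf4 was at 705 and 116 CPM in the anti-CD40 terciles and 2380 and 1000 CPM in the isotype terciles. Retnla did not follow this tag, at 23.3 and 23.8 CPM in the anti-CD40 library and 149 and 247 CPM in the isotype library. The CCR2 tag, at 9.12 per 10000 in the anti-CD40 library and 7.0 in the isotype library, separated Cbr2, Mrc1, Igf1, Pf4 and Ccl24 by less than 1.5-fold in either library, with Cbr2 at 101 and 105 CPM in its top and bottom anti-CD40 terciles. This tag hardly followed the Ccr2 transcript. It was at 9.92 in Ccr2+ Timd4- and 9.87 in Ccr2- Timd4+ anti-CD40 macrophages, and at 8.64 and 6.50 in those isotype groups. Neutrophils were at 7.40 in the anti-CD40 library and 6.85 in the isotype library. Its terciles therefore cannot show whether the genes follow surface CCR2. Fcrls was at 21.0 and 13.8 CPM in the top and bottom anti-CD40 terciles and 273 and 220 CPM in the isotype ones. Retnla was at 14.1 and 24.4 CPM in the anti-CD40 terciles and 209 and 102 CPM in the isotype ones, in opposite directions. Its levels rest on few rich cells, which were not left out of these terciles or of those by folate receptor beta.

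**Figure D5:**
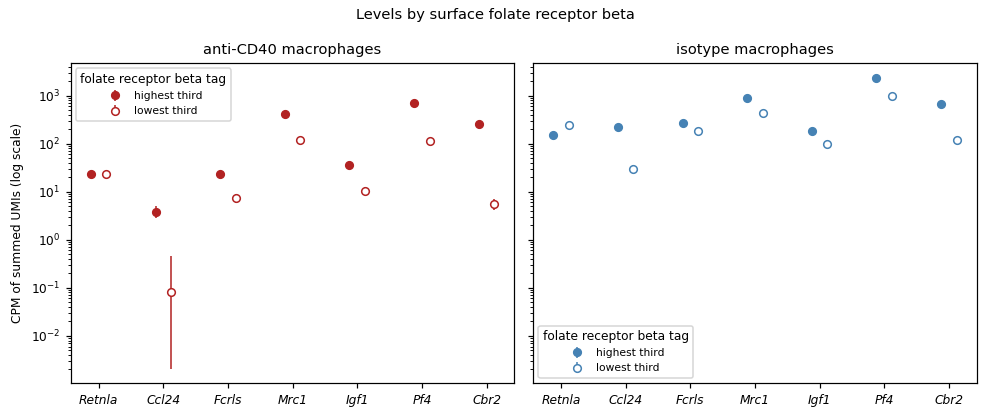
Level of each gene (CPM, log axis) in macrophages of the top (filled, left of each pair) and bottom (open) folate receptor beta terciles, for the anti-CD40 library (left panel) and the isotype library (right panel), with 95% counting intervals. Retnla is alike or higher in the bottom tercile in both panels, and the other 6 are higher in the top tercile.

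Lists of related genes were read in the same macrophages, where 11% of measured genes were at least 2-fold lower in the anti-CD40 library and 5.43% at least 2-fold higher. Barcodes with another class's markers were kept here, 25.5% of the anti-CD40 and 48.1% of the isotype macrophages. The lists were not read without those barcodes, so their share in the list differences was not tested. Of 17 genes of IL-4 and IL-13 signalling, 13 had enough counts, of which 3 were at least 2-fold lower in the anti-CD40 library (Il1rl1, the IL-33 receptor, 9.94-fold; Irf4, a transcription factor, 4.48-fold; Klf4, another, 3.66-fold), 2 at least 2-fold higher (Socs1, a cytokine signalling inhibitor, 7.44 times; Il2rg, the common gamma chain, 2.09 times) and 8 between, with a median log2 ratio of -0.06. The receptor Il4ra was at 1.14 times and Stat6 at 0.75 times the isotype level, and the cytokines themselves had 1 UMI and 11 UMIs of Il4 and 1 and 0 of Il13 in the anti-CD40 and isotype macrophages. Of 20 other alternative activation genes 11 had enough counts, 2 of them lower (F13a1, coagulation factor XIII, 4.72-fold; Cd163 5.67-fold) and 3 higher (Chil3, a chitinase-like protein, 3.79 times; Tgm2, a transglutaminase, 5.67 times; Il10, a cytokine, 6.03 times), with a median of -0.46. The 2 of 11 that were lower are near the share over all measured genes. Mgl2, a lectin commonly read beside Mrc1, was 1.56-fold lower.

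Of 29 other resident macrophage genes in the files 25 had enough counts, 13 of them lower, 1 higher and 11 between, with a median of -0.97. Over all measured genes 11% were lower and 5.43% higher. The list was chosen with earlier results of these data known, so its count is a description. Ltc4s, an enzyme of leukotriene synthesis, was 11.3-fold lower, Hpgd, which degrades prostaglandins, 7.99-fold, Gas6, a bridging molecule for dying cells, 6.83-fold and Lyve1 2.65-fold lower. Timd4 itself was at 1.07 times and Cx3cr1, the fractalkine receptor, at 0.70 times the isotype level, while Siglec1, a sialic acid receptor, was at 2.16 times. Of 27 partners and paralogs 16 had enough counts, 5 of them lower and 3 higher, with a median of -0.01. Among the lower was Fcrl1, 19.9-fold (46 anti-CD40 and 357 isotype UMIs), in cells that include the mixed barcodes. Retnlg, a paralog of Retnla known for neutrophils, was at 288 CPM in the anti-CD40 macrophages and 179 CPM in the isotype macrophages, and it is itself on the neutrophil list that marks mixed barcodes.

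Across 23 points, each a gated group of one library, the genes most like the mean pattern of the 7 included Ltc4s, Dab2, Rnase4, Stab1 and Cd163 (r = 0.93 each), Selenop (0.93), Abca9 and Mmp13 (0.92 each) and Ang (0.91), out of 6001 genes compared. The 7 were most alike for Igf1 (r = 0.96 with the mean of the other 6) and least for Retnla (0.69). The points span macrophage groups and other cell classes, so r also reflects how far a gene is higher in macrophages. Likeness among the macrophage groups alone was not computed. The points also share 2 libraries and their depth, so these are descriptions.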

How the data were processed

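Values are UMI counts per feature and barcode, as deposited by the authors, whole numbers with no normalization. Per the file headers the matrices were written by Cell Ranger 6.0.1. Per the submitters' processing notes, tools were Cell Ranger 3 and Seurat 3, and mm10 and GRCh38 were named as builds with no role given. Barcodes had been selected before deposit. The members and the gene lists were chosen with earlier results of these data known. Cells were gated on marker UMIs (at least 3 for classes other than macrophages), without clustering; cells passing several gates were kept apart and no doublet caller was run. Ratios use summed UMIs of a group; a gene counted as measured with at least 30 UMIs and at least 5% of cells detected in the group where it was higher, and log2 ratios add 10 CPM. Called lower or higher means 2-fold. Intervals are exact Poisson, Clopper-Pearson or conditional binomial at 95%, for counting error only. The ratio code was tested on simulated counts. The named genes are the 7, list members past 2-fold, and the 10 most alike, of which 1 is not reported here. Scaling by TMM used edgeR 4.0.16 in R 4.3.3; Python 3.11.15, numpy 2.4.6, scipy 1.17.1, pandas 2.3.3 and matplotlib 3.10.9 did the rest. Alternatives are in the closing section.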

Additional observations from a re-analysis of the deposited data

Results flagged for a closer look

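Retnla in Ccr2+ Timd4+ macrophages was higher in the anti-CD40 library, at 1.22 times the isotype level, while it was lower in the other 3 macrophage groups, in Ccr2- Timd4- cells on too few counts to be measured. In Ccr2- Timd4+ cells its log2 ratio shrank from -2.31 to -0.25 without barcodes passing any of the 9 other lists. The Retnla result in Ccr2+ Timd4+ cells was flagged for its direction. It is listed because the groups differ in direction; the difference between them was not tested. Leaving out cells with at least 20 Retnla UMIs gave levels of 11.8 CPM in the anti-CD40 library and 19.7 CPM in the isotype library in that group.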

How the results depend on the processing

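All 7 genes stayed at least 2-fold lower in gated macrophages under each of 14 alternatives (11 planned, 3 chosen after seeing the data), with the median log2 ratio from -2.62 to -1.91. The median was -2.25 with at least 500 genes and under 5% mitochondrial counts, -1.97 without barcodes passing any of 9 other lists, -2.10 after thinning, -1.93 with TMM, -1.91 with median of ratios, -2.24 as a mean over cells, -2.62 without barcodes of 6 unrelated lists and -1.97 over all kept cells. TMM raised log2 ratios taken without the added 10 CPM by 0.28 and median of ratios by 0.31, and less for low genes once it is added. The median in Ccr2- Timd4- cells was -1.71 without the 9 lists; in Ccr2+ Timd4- cells it was -2.43 with the stricter filter, -2.82 with a C1q gate at 50, -1.47 without the 9 lists and -2.44 when gated after thinning. With no low-count filter 4611 genes were 2-fold lower in place of 1170. The first count is over all genes with any UMI and the second over the 10653 measured genes. Leaving out cells with at least 20 Retnla UMIs, chosen after seeing the data, gave a log2 ratio of -0.45 in Ccr2+ Timd4+ cells, in place of 0.24. Retnla in Ccr2- Timd4- cells had a log2 ratio of -0.43, but 0.11 with the stricter filter and 0.76 without the 9 lists. In Ccr2- Timd4+ cells it had -2.31, but -0.25 without the 9 lists. Folds ran from 3.62 to 9.08 for Retnla, 21.9 (without the 9 lists) to 111 for Ccl24, 12.7 to 20.2 for Fcrls, 2.13 to 3.11 for Mrc1, 5.31 to 8.42 for Igf1, 3.81 to 5.71 for Pf4 and 3.22 to 5.05 for Cbr2. The cause of these shifts was not tested. No paired analysis was possible because each group has 1 library with no replicate number, and for the same reason no library could be left out.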
